A study of Mus musculus with 8 samples.

Results

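S100 proteins are small dimeric proteins of the EF-hand type, a helix-loop-helix fold that holds calcium. When calcium binds, most of them open a surface that docks on partner proteins such as annexins, myosins and ubiquitin ligase adaptors, so they act as calcium-dependent switches. Most of their genes lie in a cluster on mouse chromosome 3. Calb2 encodes calretinin, an EF-hand calcium buffer best known from neurons, which is not an S100 protein and lies on chromosome 8. The genes described here are 8 of the 17727 genes kept from the series, namely the S100 genes S100a1, S100a13, S100a16, S100a4, S100a6, S100a10 and S100a11 together with Calb2. S100a1 and Calb2 were chosen by their FPKM falls against wild-type cells, so their values against wild type are given as a description with no test. The other 6 were listed as members of the S100 family, and the question was whether the near-total loss of S100a1 extends to its neighbours in the cluster. Of 11 further S100 genes looked for, 4 were in the files, and each stayed under 1 FPKM in every sample.

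The cells were the mouse embryonic stem cell line E14TG2a of strain 129/Ola, at passages 3 to 6, and their total RNA was sequenced. Unedited cells (WT) were compared with cells that had lost one of 3 enhancers through CRISPR/Cas9 editing, named E1-KO, E2-KO and E3-KO, in a study of how enhancers and promoters pair at Sox2. All 4 groups were grown on gelatin without feeder cells in serum with leukaemia inhibitory factor, the GSK3 inhibitor CHIR99021 and the MEK inhibitor PD0325901. Each group held 2 replicates, which made 8 samples. The labels used here give neither the deleted positions nor the number of clones, so a difference from WT cannot be told apart from a difference in clone, culture or library batch, and the p-values measure only the spread between these samples. All 6 stem cell markers were present in every sample, but not at constant levels. Klf4 averaged 170 FPKM in WT and fell to 86.08, 75.04 and 80.01 FPKM in the knockouts (limma-trend adjusted p = 0.000452, 0.000248 and 0.00019). Sox2, from 133.4 FPKM, fell to 59.15, 105.5 and 94.35 FPKM (limma-trend adjusted p = 0.000169, 0.0314 and 0.00491). Esrrb fell in E1-KO and E3-KO, Pou5f1 and Zfp42 rose in E2-KO, and Nanog was not called. Of 5 neural markers 3 were analysed. Nes rose in E1-KO (0.47) and E3-KO (0.87). Pax6 rose in E1-KO (1.24) and in E2-KO (0.66). Map2 fell in E2-KO (-0.78). The part of these shifts in the results below was not tested. FPKM counts fragments relative to transcript length and library size. Absolute depth was unknown, and steps between low values placed the samples at roughly 0.785 to 1.01 times the depth of WT replicate 1.

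S100a1 and S100a13 are divergent neighbours. S100a1 (ENSMUSG00000044080, chromosome 3, 90511034 to 90514392, minus strand) and S100a13 (ENSMUSG00000042312, 90514435 to 90524581, plus strand) start back to back in the GENCODE M21 annotation of GRCm38, with start sites 43 bases apart and no overlap between the gene bodies. RefSeq places the start of S100a1 further downstream, which leaves 104 bases between the start sites. That stretch is shown because both genes that fell most in the cluster start at its ends. The sequence is from RefSeq (GRCm38.p6, chr3:90514330-90514435, plus strand), and the capitals mark the first transcribed base of S100a1, which is read on the other strand, and that of S100a13.
S100a1-S100a13: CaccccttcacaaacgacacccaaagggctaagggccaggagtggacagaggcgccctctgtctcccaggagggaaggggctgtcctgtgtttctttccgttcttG
It held 59.4% G or C and 3 CG dinucleotides. RefSeq promoter windows, from 250 bases before to 50 after a start, were found for 6 of the 8 genes, and S100a10 and Calb2 had none. These windows were searched on both strands for 5 motifs. The GC box was searched as GGGCGG. The CCAAT box was searched by the letters of its name. The TATA box was searched as TATAAA. A core of SOX sites was searched as ACAAT, which shares its last 4 letters with the CCAAT box. The octamer was searched as ATGCAAAT. Neither the S100a1 nor the S100a13 window held any of the 5. Both windows cover 90514281 to 90514484, so the absence is largely the same observation. Over all 32851 windows of this length, 35.7% held the GC box, 37.4% the CCAAT box, 13.6% the TATA box, 31% the SOX core and 1.74% the octamer. Of the other members' windows, S100a16 has a pair, of which the first held no motif and the second held 1 GC box and 1 SOX core. S100a4 held 1 TATA box and 2 SOX cores, and S100a6 held 1 CCAAT box. S100a11, which was higher in E3-KO, held only the GC box. The 100 bases before its start are shown, with its 3 matches in capitals (RefSeq, GRCm38.p6, chr3:93520396-93520495, plus strand).
S100a11: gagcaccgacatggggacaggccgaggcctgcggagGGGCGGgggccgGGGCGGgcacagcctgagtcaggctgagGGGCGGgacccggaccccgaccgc

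S100a1, known for binding the ryanodine receptor in heart and muscle, was expressed in WT stem cells and nearly lost in all 3 knockouts. Its level was 47.16 and 43.42 FPKM in the WT samples. It was 4.086 and 4.876 FPKM for E1-KO, 3.611 and 5.556 FPKM for E2-KO and 3.433 and 2.708 FPKM in E3-KO. All 6 knockout samples lay far below both WT samples, and the knockouts overlapped only between E1-KO and E2-KO. The mean was 45.29 ± 2.64 FPKM in WT and the knockout means were 0.0989, 0.101 and 0.0678 of it in the order E1-KO, E2-KO, E3-KO (n = 2 each). On the log2(FPKM + 1) scale the changes were -3.08, -3.07 and -3.51, which gave S100a1 the ranks 3, 2 and 1 from the bottom among the 11272 tested genes. These are the values for which the gene was chosen.

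S100a13, which takes part in the non-classical release of FGF1 and interleukin 1 alpha from cells, fell with its divergent neighbour. It stood at 16.94 and 20.57 FPKM in WT. The knockout samples gave 2.604 and 2.024 FPKM for E1-KO, 3.806 and 2.901 FPKM for E2-KO, and 3.5 and 3.215 FPKM in E3-KO. No knockout sample came near the WT samples, and E2-KO and E3-KO overlapped. The WT mean of 18.76 ± 2.56 FPKM was 8.11-fold, 5.59-fold and 5.59-fold above the means of E1-KO (2.314 ± 0.411), E2-KO (3.353 ± 0.64) and E3-KO (3.357 ± 0.201, SD, n = 2 each). The log2 fold changes were -2.58 (SE 0.164, limma-trend adjusted p = 4.47e-05), -2.18 (SE 0.164, limma-trend adjusted p = 8.51e-05) and -2.18 (SE 0.164, limma-trend adjusted p = 6.52e-05). Only 7, 20 and 18 of the 11272 tested genes had a lower value in the respective comparisons. The 3 comparisons share the WT samples. The ratio of S100a1 to S100a13 was 2.78 and 2.11 in WT, 1.57 and 2.41 in the E1-KO samples, 0.949 and 1.92 for E2-KO, and 0.981 and 0.842 in E3-KO, so that S100a1 was the higher of the pair in both WT samples and the lower in both E3-KO samples. In these bulk samples, fewer cells with the transcripts and less RNA per cell cannot be told apart.

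**Figure D1:**
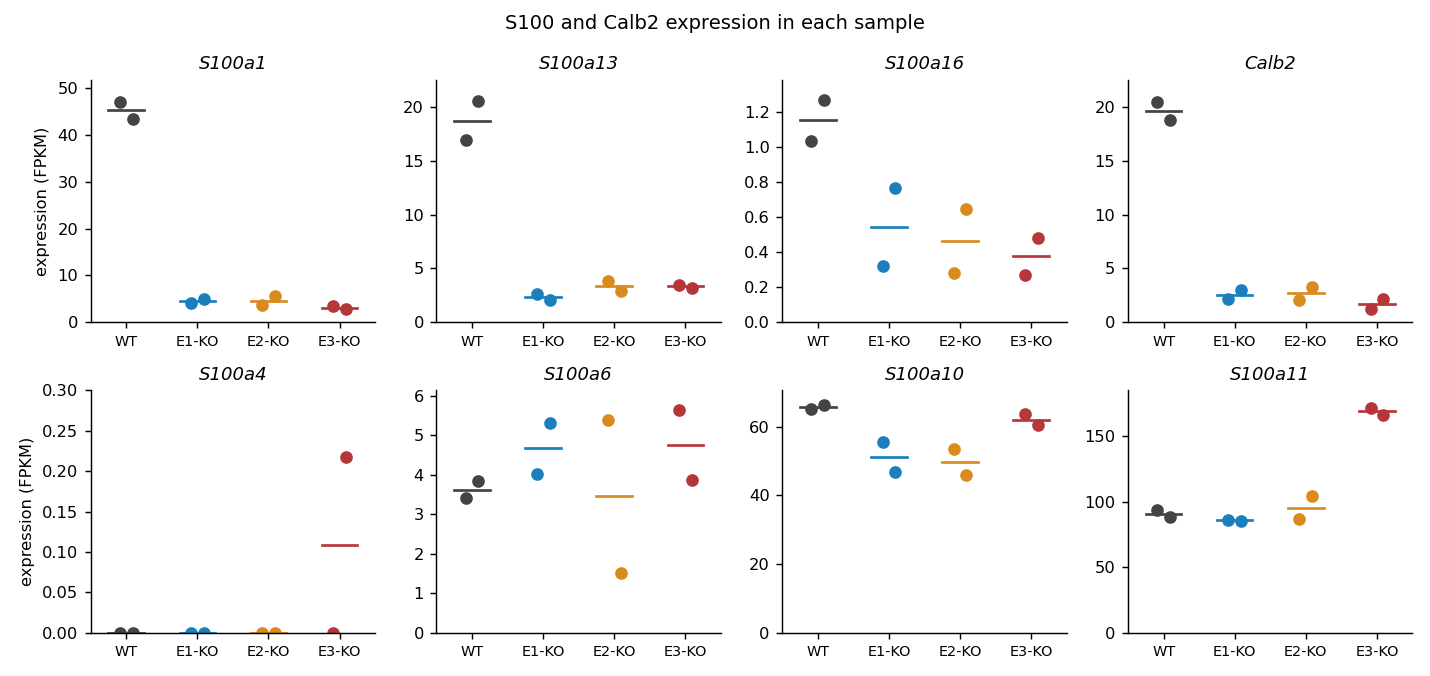
Expression of the 8 genes in FPKM (linear axis from 0) for each of the 8 samples; points are samples and bars the group means. The knockout samples of S100a1, S100a13, S100a16 and Calb2 lie below both WT samples. So do those of S100a10, at 46 to 63.53 FPKM against 65.23 and 66.13 FPKM in WT. S100a11 is high in E3-KO only, and S100a4 is listed at 0 in 7 of 8 samples.

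Further along the cluster the levels were low. S100a14, an epithelial S100 gene 12.5 kb from the start of S100a1, did not pass 0.1808 FPKM in any sample. S100a16 (ENSMUSG00000074457, 90537254 to 90543151), a widely expressed family member 22.9 kb away, had 1.035 and 1.266 FPKM in WT. It had 0.3193 and 0.7658 FPKM for E1-KO, 0.2816 and 0.6438 FPKM for E2-KO and 0.2709 and 0.4794 FPKM in E3-KO, and so no knockout sample reached either WT sample. With a mean of 0.6328 FPKM it was under the filter of 1 FPKM and was not tested in the main fit. When all 17727 genes above 0 were fitted, its log2 fold change was -0.49 in E1-KO (limma-trend adjusted p = 0.0994), -0.57 in E2-KO (limma-trend adjusted p = 0.0705) and -0.65 in E3-KO (limma-trend adjusted p = 0.0377), so that only the fall in E3-KO passed. In that fit 19.1% of genes were called lower in E3-KO. S100a4 (ENSMUSG00000001020, 90603771 to 90606045), a binder of non-muscle myosin known from motile and metastatic cells, was listed at 0 in 7 samples and at 0.2175 FPKM in E3-KO replicate 2. S100a3 was listed at 0 in all but WT replicate 1, where it had 0.2442 FPKM.

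S100a6 (ENSMUSG00000001025, 90612882 to 90624181), also called calcyclin, lies 98.5 kb from the start of S100a1 and did not follow it. Its level was 3.402 and 3.845 FPKM in WT, 4.026 and 5.305 FPKM for E1-KO, 5.39 and 1.519 FPKM for E2-KO and 5.634 and 3.855 FPKM in E3-KO. Of the knockout samples 5 were above both WT samples and 1, E2-KO replicate 2, was below. The log2 fold changes were 0.29 (limma-trend adjusted p = 0.564), -0.20 (0.688) and 0.30 (0.533), with 95% intervals of -0.54 to 1.11, -1.03 to 0.62 and -0.53 to 1.12. On the linear scale the knockout means were 1.29, 0.953 and 1.31 of the WT mean, against 0.123, 0.179 and 0.179 for S100a13. The log2 intervals cannot be set against the log2 falls of S100a13. The added 1 FPKM limits how far a gene as low as S100a6 can fall on that scale. The E2-KO value rested on its replicates, since it was 0.47 without replicate 2 and -0.87 without replicate 1, when it passed (limma-trend adjusted p = 0.0316).

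The remaining pair lies on the same chromosome, 3006.1 kb (S100a11) and 3040.7 kb (S100a10) from the start of S100a1. S100a10 (ENSMUSG00000041959, 93555080 to 93564643) has lost calcium binding and works as the partner of annexin A2 at membranes. It had 65.23 and 66.13 FPKM in WT, 55.49 and 46.78 FPKM for E1-KO, 53.37 and 46 FPKM for E2-KO and 63.53 and 60.48 FPKM in E3-KO. The knockout samples all stayed under the lower WT sample, E3-KO by the least. Its log2 fold change in E1-KO was -0.36 (SE 0.114, limma-trend adjusted p = 0.0352). The E2-KO value was -0.40 (SE 0.114, limma-trend adjusted p = 0.0247). E3-KO gave -0.08 (limma-trend adjusted p = 0.585), which turned to 0.09 with median-ratio scaling. Both calls were lost with median-ratio scaling, at -0.29 (limma-trend adjusted p = 0.0685) and -0.31 (limma-trend adjusted p = 0.0547). They were also lost without either WT replicate (limma-trend adjusted p 0.103 to 0.154), without replicate 2 of the knockout concerned (0.243 for E1-KO, 0.102 for E2-KO) and, in E1-KO, with all genes above 0 (0.0549).

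S100a11 (ENSMUSG00000027907, 93520488 to 93526287), which binds annexin A1 and takes part in membrane repair and growth control, was the most abundant of the 8 genes and rose in E3-KO. Its level was 93.52 and 88.21 FPKM in WT, 86.04 and 85.67 FPKM for E1-KO, 86.97 and 104 FPKM for E2-KO and 171.8 and 166.1 FPKM in E3-KO. Both E3-KO samples stood above the other 6, which overlapped or lay close together. The mean in E3-KO was 168.9 ± 4.06 FPKM against 90.86 ± 3.76 FPKM in WT (SD, n = 2 each), a ratio of 1.86. The log2 fold change was 0.89 (SE 0.107, limma-trend adjusted p = 0.000356), against a median of -0.151 over all tested genes, a shift that median-ratio scaling brought to 0.006. In E1-KO it was -0.08 (limma-trend adjusted p = 0.579, 95% interval -0.32 to 0.16) and in E2-KO 0.07 (limma-trend adjusted p = 0.653, 95% interval -0.17 to 0.31), where quantile normalization and leaving out E2-KO replicate 2 turned the sign. Some markers of other cell types were higher in E3-KO as well. Of the 7 trophectoderm markers, Krt8 (1.16, limma-trend adjusted p = 0.00149) and Gata3 (1.59, limma-trend adjusted p = 0.00227) rose and none was called lower, while the sum, 58.08 to 74.72 FPKM, overlapped the 54.98 to 58.6 FPKM of WT. Of the 8 fibroblast markers, 6 stayed under 1 FPKM in every sample. The 8 summed to 3.284 to 3.39 FPKM in WT and 4.682 to 5.096 FPKM in E3-KO. Of those above 1 FPKM, Thy1 rose in E3-KO (1.06, limma-trend adjusted p = 0.00115). Pdgfrb went the other way and was not called (-0.43, limma-trend adjusted p = 0.0536). The fibroblast sum was 5.341 to 5.595 FPKM in E1-KO and 3.514 to 4.447 FPKM in E2-KO. Of 6 markers of extraembryonic endoderm 4 were analysed, with 3 of them under 1 FPKM in every sample. They summed to 1.338 FPKM in WT, 0.6325 to 0.644 FPKM in E1-KO and 0.8248 to 0.971 FPKM in E2-KO. In E3-KO they summed to between 2.213 and 4.531 FPKM. The marker above 1 FPKM was Gata6, with 1.042 and 1.147 FPKM in WT and 3.723 and 1.758 FPKM in E3-KO. Gata6 rose in E3-KO by 0.79 (limma-trend adjusted p = 0.025). None of the analysed markers in the 3 lists was at 0 in all samples. Their part in the rise of S100a11 was not tested.

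Of the 6 listed S100 genes apart from S100a1, 4 passed the filter and 2 were called in each knockout. In E1-KO and E2-KO these were S100a13 and S100a10, both lower. Of all tested genes, 38.0% were called in E1-KO (15.0% higher, 23.0% lower) and 36.1% in E2-KO (14.2% higher, 21.9% lower). In E3-KO they were S100a13, lower, and S100a11, higher, where 44.7% of all tested genes were called (13.9% higher, 30.8% lower). The split of all calls depended on scaling. Median-ratio scaling called 2063 genes higher and 1914 lower in E2-KO, against 1596 and 2474 without it, and 2376 higher and 2352 lower in E3-KO, against 1568 and 3470.

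**Figure D2:**
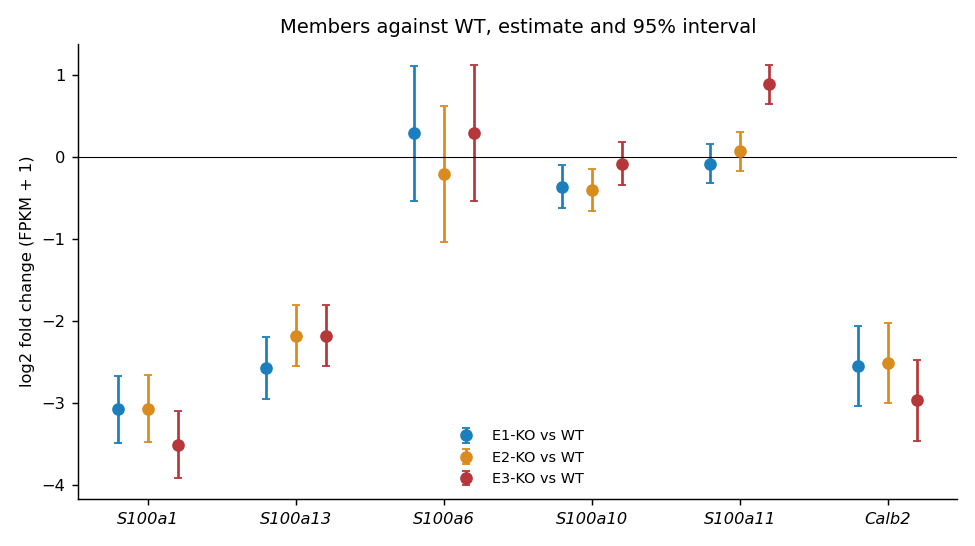
Log2 fold change of FPKM + 1 against WT (y axis) for the 6 genes above the filter (x axis), with the 95% interval from limma-trend; colours are the 3 knockouts, and S100a1 and Calb2 are shown as a description. S100a1, S100a13 and Calb2 lie at -2.18 or lower in every knockout, S100a6 spans 0, and S100a11 departs from 0 in E3-KO at 0.89. The S100a10 interval lies below 0 in E1-KO (-0.62 to -0.10) and E2-KO (-0.66 to -0.14) and spans 0 in E3-KO.

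The genes around S100a1 that do not belong to the family did not share the loss. Within 500 kb of its start, 19 further genes, S100a14 and S100a3 among them, were in the files and 15 were tested. Those called were 3 higher and 1 lower for E1-KO, 1 higher and 1 lower in E2-KO, and 2 higher and 3 lower in E3-KO. These are 26.7%, 13.3% and 33.3%, under the 38.0%, 36.1% and 44.7% of all genes. Their median log2 fold change was 0.00, 0.14 and 0.05, against -0.062, -0.076 and -0.151 over all tested genes. The lowest single value in each comparison was -0.42, -0.59 and -0.89, well short of S100a13. Chtop, a chromatin target of the arginine methyltransferase PRMT1 that starts 4.9 kb from the start of S100a1, is the nearest tested gene on that side, and apart from the members no gene on the other side within the window was tested. Chtop had 89.82 and 89.79 FPKM in WT and 64.82 to 84.35 FPKM in the knockout samples, all of them below WT. Its log2 fold changes were -0.21 (limma-trend adjusted p = 0.152, and 0.0254 with WT and E1-KO fitted alone), -0.15 (0.292) and -0.35 (0.0257), and the call in E3-KO was lost with median-ratio scaling (-0.17, limma-trend adjusted p = 0.18) and without either WT replicate or E3-KO replicate 2 (0.11 to 0.121). Snapin, a SNARE-binding protein of vesicle transport 23.4 kb away, was lower by small amounts in all 3, with log2 fold changes of -0.29, -0.36 and -0.49 (limma-trend adjusted p = 0.0464, 0.0219 and 0.00436). The first call was lost with the replicate block, quantile normalization, median-ratio scaling and without any 1 of the WT and E1-KO samples (limma-trend adjusted p 0.0649 to 0.269). The second was lost with median-ratio scaling and without either WT sample or E2-KO replicate 2 (0.0562 to 0.128). Ilf2, an RNA-binding factor 38.3 kb away, had 133.7 and 123.4 FPKM in WT and 115.7 to 148.4 FPKM in the knockouts, with log2 fold changes of 0.17, 0.15 and -0.12, none called, and the last turned to 0.06 with median-ratio scaling. Farther out, Tpm3, a tropomyosin, rose in all 3 (0.48, 0.56 and 0.57), and in E1-KO its call was lost without WT replicate 2 (0.45, limma-trend adjusted p = 0.0569). Dennd4b, a regulator of Rab proteins, fell in E3-KO (-0.89, limma-trend adjusted p = 0.00882), a call lost without WT replicate 2 (-0.77, 0.07) or E3-KO replicate 1 (-0.64, 0.0524). The natriuretic peptide receptor gene Npr1 rose in E1-KO (0.54) and E3-KO (0.49). Both calls were lost without either WT replicate, though the values stayed at 0.50 to 0.58 in E1-KO and 0.45 to 0.53 in E3-KO. They were also lost without replicate 1 of the knockout concerned (0.48 and 0.45). The identifier of Npr1 was carried by more than 1 line of the files.

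**Figure D3:**
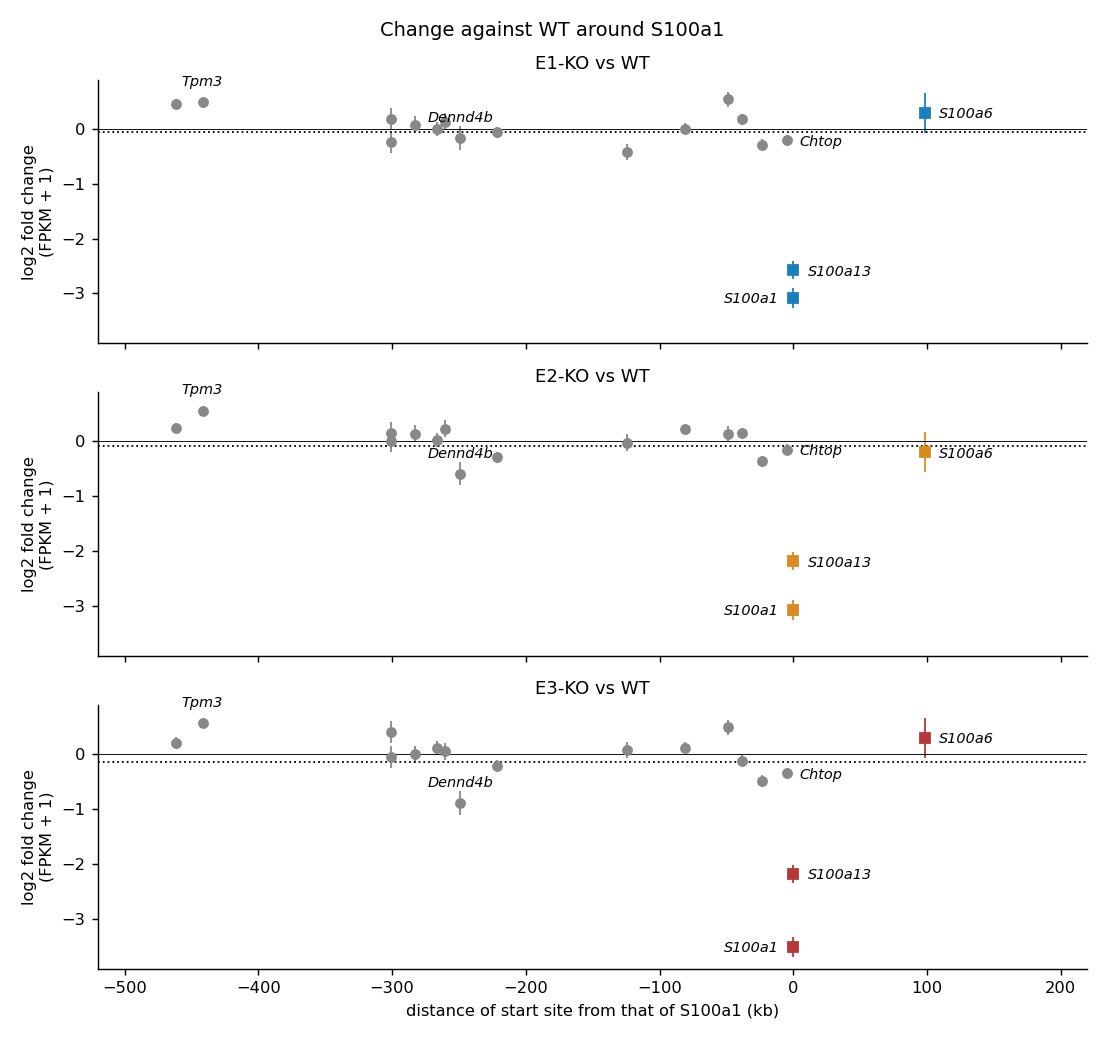
Log2 fold change against WT (y axis, FPKM + 1, bars are SE) of the tested genes within 500 kb of S100a1 by the distance of their start from its own (x axis, kb), in 1 panel per knockout; squares are S100 genes, circles other genes, and the dotted line is the median of all tested genes. S100a1 and S100a13 stand alone at -2.18 or lower, while the other genes lie between -0.89 and 0.57.

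Calb2 (ENSMUSG00000003657, chromosome 8, 110137502 to 110168210, minus strand) was chosen for its fall. It had 20.51 and 18.82 FPKM in WT, 2.106 and 2.995 FPKM for E1-KO, 2.098 and 3.229 FPKM for E2-KO and 1.232 and 2.109 FPKM in E3-KO. All 6 knockout samples lay far below WT and the 3 knockouts overlapped. The WT mean of 19.67 ± 1.19 FPKM (SD, n = 2) was 7.71-fold, 7.38-fold and 11.8-fold above the knockout means, and the log2 changes were -2.55, -2.51 and -2.97. Within 500 kb of its start, 10 genes were tested, of which 1 was called higher and 3 lower in each knockout. That is 40.0%, near the 38.0%, 36.1% and 44.7% of all genes. The medians were -0.30, -0.26 and -0.31, beside -0.062, -0.076 and -0.151. The lowest values were those of Ist1, a factor of the ESCRT machinery 474.9 kb away. Ist1 had 49.61 and 51.45 FPKM in WT and 18.36 to 25.87 FPKM in the knockout samples. Its log2 fold changes were -1.06, -1.03 and -1.30 (limma-trend adjusted p = 0.00031, 0.000411 and 9.07e-05), and it was called in all 16 alternative fits of each comparison. Atxn1l, a relative of the ataxin 1 repressor, fell in E2-KO (-0.85, limma-trend adjusted p = 0.00683). In E1-KO it was called at -0.51 (limma-trend adjusted p = 0.0491), and 14 of 15 alternatives lost that call (0.0508 to 0.326), all but the one without E1-KO replicate 2. Cmtr2, an RNA cap methyltransferase, fell in E3-KO (-0.57, limma-trend adjusted p = 0.0283), and 7 of 15 alternatives lost it, leaving out either WT sample or E3-KO replicate 2 among them (0.0556 to 0.153). Hydin, a gene of motile cilia, rose by 0.75, 0.48 and 0.40 (limma-trend adjusted p = 0.00366, 0.0265 and 0.0442), and 4 and 8 of 15 alternatives lost the calls in E2-KO and E3-KO, leaving out either WT sample among them (up to 0.14 and 0.164).

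The levels of the members in WT, compared per transcript length, ran from S100a11 (90.86 ± 3.76 FPKM) through S100a10 (65.68 ± 0.631), S100a1 (45.29 ± 2.64), Calb2 (19.67 ± 1.19), S100a13 (18.76 ± 2.56) and S100a6 (3.623 ± 0.313) to S100a16 (1.151 ± 0.164, SD, n = 2 each) and S100a4, listed at 0. Calb2 and S100a13 overlapped, and the other neighbours in this order did not. In the knockouts S100a1, S100a13, Calb2 and S100a6 came to lie together, all between 1.232 and 5.634 FPKM.

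Compared with each other, the knockouts differed in S100a11. E3-KO exceeded E1-KO by 0.97 in log2 units (SE 0.107, limma-trend adjusted p = 0.000498) and E2-KO by 0.82 (SE 0.107, limma-trend adjusted p = 0.00201). Of the 5 members tested in these comparisons it alone was called. Calb2 was left out of them, since E3-KO took part in its choice. Among all genes, 25.8% and 15.6% were called in these comparisons, 9.41% and 5.48% higher in E3-KO. Median-ratio scaling moved the split of all genes from 1061 higher and 1849 lower to 1444 and 1308 against E1-KO, and from 618 and 1135 to 858 and 824 against E2-KO. S100a6 was also called between E3-KO and E2-KO without E2-KO replicate 1 (1.17, limma-trend adjusted p = 0.0245). Between E2-KO and E1-KO, where 0.834% of all genes were called, 0 of 6 members passed in limma-trend, and 1, S100a13, had an unadjusted p under 0.05 (0.0405). For S100a1 the differences were 0.01 between E2-KO and E1-KO (95% interval -0.40 to 0.42), -0.43 between E3-KO and E1-KO (-0.84 to -0.02, limma-trend adjusted p = 0.112) and -0.44 between E3-KO and E2-KO (-0.85 to -0.03, limma-trend adjusted p = 0.133). The last passed without E2-KO replicate 1 (-0.69, limma-trend adjusted p = 0.0463). For S100a13 they were 0.39 (0.02 to 0.76, limma-trend adjusted p = 0.245), 0.40 (0.03 to 0.77, limma-trend adjusted p = 0.104) and 0.01 (-0.36 to 0.38, limma-trend adjusted p = 0.977). S100a10 was above E1-KO by 0.28 and above E2-KO by 0.32 in E3-KO (limma-trend adjusted p = 0.105 and 0.0928), and both passed with quantile normalization (0.36 and 0.40, limma-trend adjusted p = 0.0363 and 0.0347) and with median-ratio scaling (0.38 and 0.40, limma-trend adjusted p = 0.0355 and 0.0406). Calb2 differed by 0.04 between E2-KO and E1-KO (95% interval -0.45 to 0.53). Given as a description, it differed by -0.42 between E3-KO and E1-KO and by -0.46 between E3-KO and E2-KO.

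Partners and targets of S100 proteins were taken from a list of 30 genes, of which 23 were tested. Called were 6 higher and 8 lower for E1-KO, 4 higher and 10 lower in E2-KO, and 6 higher and 8 lower in E3-KO, so 60.9% of the tested genes in each, beside 38.0%, 36.1% and 44.7% of all genes. The medians were -0.15, -0.21 and -0.07, beside -0.062, -0.076 and -0.151. Anxa2, the annexin bound by S100a10, had 22.78 and 20.96 FPKM in WT, 13.57 and 11.18 FPKM for E1-KO, 7.408 and 9.932 FPKM for E2-KO and 26.67 and 23.68 FPKM in E3-KO. It fell in E1-KO (-0.78, limma-trend adjusted p = 0.00457) and E2-KO (-1.25, limma-trend adjusted p = 0.000602), the same knockouts in which S100a10 was called lower, and did not pass in E3-KO (0.19, limma-trend adjusted p = 0.329). Tested directly, E3-KO was above E1-KO by 0.97 and above E2-KO by 1.45 (limma-trend adjusted p = 0.00227 and 0.00101). The S100a10 calls against WT were less firm, since some alternatives lost them. Its own differences between E3-KO and E1-KO or E2-KO were not called in the main fit (limma-trend adjusted p = 0.105 and 0.0928). Markers of trophectoderm were mixed in these knockouts, while their sum was lower than in WT. Tfap2c (-1.01 and -0.64) and Krt18 (-0.67 and -1.46) fell in both E1-KO and E2-KO, Krt8 rose in E1-KO (0.64, limma-trend adjusted p = 0.025), Eomes and Gata3 were not called, and Cdx2 and Elf5 stayed under 1 FPKM. The sum of the 7 was 54.98 to 58.6 FPKM in WT and 37.39 to 45.5 FPKM in the samples of these knockouts, and its part in the falls of S100a10 and Anxa2 was not tested.

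Anxa1, the annexin bound by S100a11, had 2.622 and 3.595 FPKM in WT, 1.534 and 1.312 FPKM for E1-KO, 3.372 and 3.361 FPKM for E2-KO and 9.763 and 5.091 FPKM in E3-KO. It rose in E3-KO, where S100a11 also rose, by 0.99 (limma-trend adjusted p = 0.0107), a call lost without WT replicate 1 (0.82, limma-trend adjusted p = 0.0774), and was 0.58 without E3-KO replicate 1. It fell in E1-KO (-0.75, limma-trend adjusted p = 0.0388), a call lost with all genes above 0 and without any 1 of the WT, E1-KO and E2-KO samples (range over 15 alternatives, 0.00759 to 0.215). E2-KO gave 0.10 (limma-trend adjusted p = 0.776). Tested directly, E3-KO exceeded E1-KO by 1.74 (limma-trend adjusted p = 0.00143). It exceeded E2-KO by 0.89 (limma-trend adjusted p = 0.0408), a call that 10 of 15 alternatives lost, among them the replicate block (0.0542) and leaving out any sample except E3-KO replicate 2 (range over all 15, 0.0088 to 0.131). Anxa5, a phosphatidylserine-binding annexin, fell in all 3 knockouts (-0.91, -1.06 and -0.93, limma-trend adjusted p = 0.00437, 0.00237 and 0.00309). Ndrg1, a stress-induced gene, fell in E2-KO (-0.98, limma-trend adjusted p = 0.0194), a call lost with all genes above 0 and without either WT sample or E2-KO replicate 1 (range over 16 alternatives, 0.00933 to 0.117). Chosen after their values were seen, Ahnak, a giant scaffold that the S100a10-annexin A2 complex binds, fell in all 3 (-0.94, -0.81 and -0.73), and Cacybp, the calcyclin-binding protein of S100a6, rose in all 3 (0.63, 0.85 and 0.69), although S100a6 was not called.

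**Figure D4:**
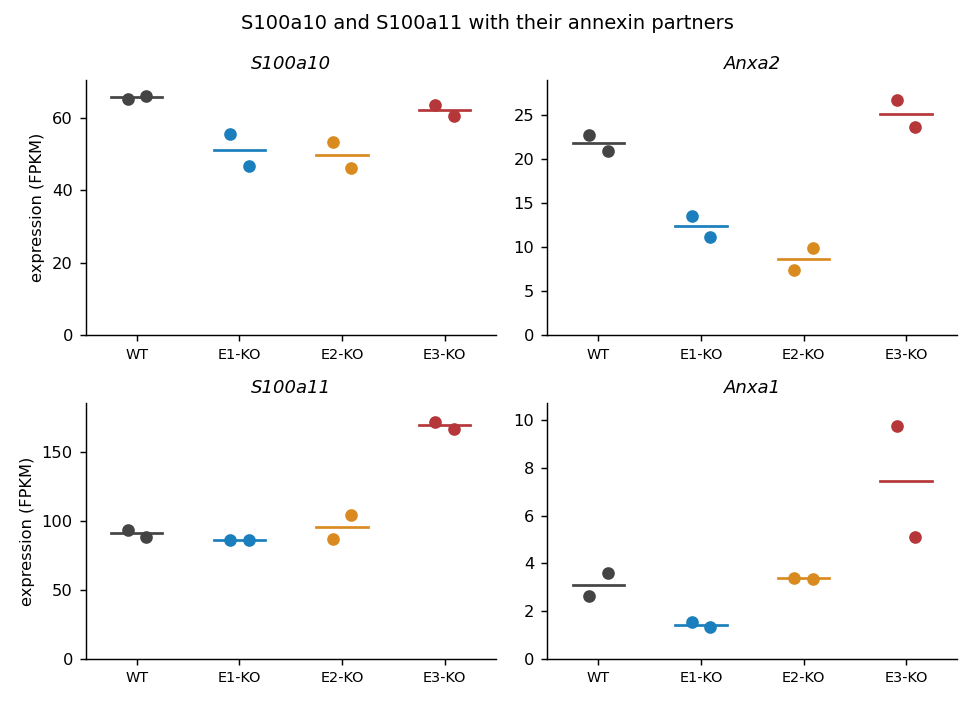
Expression in FPKM (linear axis from 0) of S100a10 with its partner Anxa2 and of S100a11 with its partner Anxa1, per sample, with bars at group means. S100a10 and Anxa2 are lowest in E1-KO and E2-KO, and S100a11 and Anxa1 are highest in E3-KO, where the Anxa1 samples lie at 9.763 and 5.091 FPKM.

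Other EF-hand genes moved in both directions. Of 49 listed, 37 were tested, with 8 higher and 8 lower for E1-KO, 6 higher and 11 lower in E2-KO and 5 higher and 11 lower in E3-KO (43.2%, 45.9% and 43.2% called, beside 38.0%, 36.1% and 44.7% of all genes). The medians were 0.04, 0.06 and -0.12, beside -0.062, -0.076 and -0.151. Lcp1, the actin-bundling L-plastin, fell most, from 14.56 and 14.53 FPKM in WT to 5.421 and 7.757 FPKM for E1-KO, 1.996 and 2.201 FPKM for E2-KO and 4.176 and 3.491 FPKM in E3-KO (-1.05, -2.33 and -1.69, limma-trend adjusted p = 0.00174, 7.61e-05 and 0.000145). Tesc, the calcineurin-like tescalcin, rose from 2.117 and 3.32 FPKM to between 8.896 and 22.17 FPKM in the knockouts (1.48, 1.82 and 2.24, limma-trend adjusted p = 0.00287, 0.00123 and 0.000312). Sparc, a secreted matrix protein, rose from 87.93 and 94.18 FPKM to between 133 and 231.2 FPKM (0.71, 0.62 and 1.23, limma-trend adjusted p = 0.00168, 0.00322 and 0.000106). Calml4, a calmodulin-like gene, rose in E1-KO (1.31, limma-trend adjusted p = 0.0034), against 0.49 and -0.12 in E2-KO and E3-KO. The direct difference was -0.82 for E2-KO (limma-trend adjusted p = 0.131) and -1.43 for E3-KO (limma-trend adjusted p = 0.00316). It was called in E2-KO without E2-KO replicate 2 (0.79, limma-trend adjusted p = 0.0423).

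Over the 8 samples, the genes most like S100a1 by Pearson r of log2(FPKM + 1), among the other 11271 tested genes, were Dkk3 (0.996), Kctd6 (0.996), Tex15 (0.993), the identifier ENSMUSG00000078191 (0.993) and Ist1 (0.993), the gene near Calb2. Dkk3 belongs to the Dickkopf family of secreted proteins, Kctd6 is an adaptor of cullin ubiquitin ligases and Tex15 a germ cell gene. Like S100a1 they were high in WT and low in all knockouts, as with Tex15 at 26.39 ± 1.13 FPKM in WT and 6.337 ± 0.264, 6.191 ± 0.155 and 5.418 ± 0.739 FPKM in the knockouts (SD, n = 2 each). Calb2 had rank 23 in this order (r = 0.988) and S100a13 rank 347 (r = 0.947), while S100a10 (0.515), S100a6 (-0.215) and S100a11 (-0.413) were less alike. The genes most like Calb2 were Mbip, Gstm3 and Rbfox2 (0.992, 0.992 and 0.991). The 8 samples fall into 4 groups, so the points share their groups, and these values are a description. S100a1 and Calb2 were both chosen for their fall from WT, which also enters r. A high r between them, and with other genes low in all knockouts, therefore follows from that choice.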

How the data were processed

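Per the labels' protocols, total RNA libraries of 8 samples were sequenced as paired-end reads of 150 bases. The submitters' processing notes name Trimmomatic 0.36, TopHat2 2.0.12, Cufflinks 2.2.1 and the mm9 build. The authors deposited 1 list of identifiers and values per sample, and no file header states the unit. The deposited values were taken as FPKM, since Cufflinks reports FPKM and the values were not whole and summed to 454974 to 532007. The annotation, strand setting and any scaling between samples are not given in the sources used here.

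Of 17812 identifiers, 660 had more than 1 row; the row in the gene's own place in the file order was kept for 575, and 85 were left out. No member was affected. Coordinates are those of GENCODE M21 (GRCm38), since the files carry none. The 11272 genes averaging 1 FPKM or more were fitted on log2(FPKM + 1), which understates changes of low genes, in limma-trend (limma 3.58.1, R 4.3.3; tested on simulated data), with group as the only term and all 8 samples. Calls had a two-sided Benjamini-Hochberg adjusted p under 0.05 over all tested genes. The members and lists were chosen with earlier results of these data known. Named were all members, other S100 genes, up to 4 called genes per list with the largest change, the nearest tested gene to S100a1, and the genes most like S100a1 and Calb2. Ilf2, Ahnak and Cacybp were added. Alternatives were a replicate block, quantile and median-ratio scaling, other filters, a pseudocount of 0.1, the pair of groups alone, summed rows and leaving out each sample. Figures used matplotlib 3.10.9 in Python 3.11.15.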

Additional observations from a re-analysis of the deposited data

Results flagged for a closer look

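Changes against WT that differed between knockouts, each tested as the direct contrast in limma-trend, are given with their adjusted p-values. For S100a11, E3-KO exceeded E1-KO by 0.97 and E2-KO by 0.82 (limma-trend adjusted p = 0.000498 and 0.00201). Anxa1 was higher in E3-KO by 1.74 against E1-KO and by 0.89 against E2-KO (limma-trend adjusted p = 0.00143 and 0.0408), and Anxa2 by 0.97 and 1.45 (limma-trend adjusted p = 0.00227 and 0.00101). Sparc was higher in E3-KO by 0.52 against E1-KO and by 0.61 against E2-KO (limma-trend adjusted p = 0.00868 and 0.00826). Lcp1 was -1.28 in E2-KO against E1-KO (limma-trend adjusted p = 0.0161), -0.64 in E3-KO against E1-KO (limma-trend adjusted p = 0.0216) and 0.64 in E3-KO against E2-KO (limma-trend adjusted p = 0.0325). Calml4 was -1.43 and Dennd4b was -0.72 in E3-KO against E1-KO (limma-trend adjusted p = 0.00316 and 0.0355). Several of these calls were lost under some alternatives. The differences of Lcp1 were lost in 5, 4 and 8 of 16 (largest adjusted p 0.0907, 0.152 and 0.116), that of Dennd4b in 8 of 16 (0.184), those of Sparc in 2 and 1 of 16 (0.0674 and 0.0636) and that of Anxa1 between E3-KO and E2-KO in 10 of 15 (0.131).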

How the results depend on the processing

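The falls of S100a13 in all 3 knockouts and the rise of S100a11 in E3-KO were called under all 16 alternatives, with log2 fold changes of -2.97 to -2.44, -2.45 to -2.03 and -2.44 to -2.01 for S100a13 and 0.85 to 1.06 for S100a11. With 2 samples per group and unknown absolute depth, small changes could not be resolved. The cause of the changes below was not tested.

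Same-numbered samples deviated together hardly at all (mean correlation 0.005, range -0.042 to 0.090 over 6 pairs of groups). With 2 replicates per group, these correlations cannot show whether same-numbered samples shared a batch. With the replicate block, 2 of the tested S100 members were called in each knockout, as without it. The block lost 3 calls of named genes, Anxa1 between E3-KO and E2-KO (limma-trend adjusted p = 0.0542), Snapin in E1-KO (0.0649) and Atxn1l in E1-KO (0.0652), and added Dennd4b in E2-KO (0.044).

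Counts of called genes moved as follows. With median-ratio scaling 1 S100 member was called in E1-KO and 1 also in E2-KO, while all genes above 0 left 1 in E1-KO. Quantile normalization and median-ratio scaling each called 2 members in E3-KO against E1-KO and 2 against E2-KO. A filter of 5 FPKM left 9 called partner genes in E1-KO, and 1 called gene near Calb2 in each knockout. Genes of lower mean, Anxa1, Anxa5, Atxn1l, Hydin and Cmtr2 among them, were not tested under it. Their calls were therefore not lost in a test. With all genes above 0, 2 genes near Calb2 were called in E2-KO and 1 was in E3-KO. With the pair of groups alone it was 1 in E3-KO, and 7 genes near S100a1 were called in E1-KO. The share of all tested genes called with the pair alone is not given here.

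Leaving out 1 sample at a time gave 1 to 2 called S100 members in E1-KO. The range was 1 to 3 in E2-KO, as it was between E3-KO and E2-KO. Partner genes gave 8 to 15, 6 to 14 and 6 to 14 calls in E1-KO, E2-KO and E3-KO. EF-hand genes gave 6 to 18 in E1-KO and 6 to 16 in E2-KO. Genes near S100a1 gave 1 to 5, 1 to 5 and 2 to 5, and genes near Calb2 2 to 4, 2 to 4 and 1 to 4. Most of the lowest counts came without a WT sample. The share of all tested genes called in these fits is not given here. A move of a list therefore cannot be told apart from a move of all genes.

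Signs turned in the following cases. With median-ratio scaling S100a10 was 0.09 and Ilf2 0.06 in E3-KO, and with quantile normalization S100a11 was -2e-05 in E2-KO. With 1 sample left out, E2-KO minus E1-KO ranged from -0.25 to 0.26 for S100a1, -0.19 to 0.26 for Calb2, -0.16 to 0.08 for S100a10 and -1.16 to 0.18 for S100a6. E3-KO minus E2-KO ranged from -0.14 to 0.16 for S100a13 and -0.17 to 1.17 for S100a6, and E3-KO minus E1-KO from -0.21 to 0.24 for S100a6. Against WT, E2-KO ranged from -0.87 to 0.47 for S100a6, -0.06 to 0.19 for S100a11, -0.07 to 0.27 for Anxa1 and -0.04 to 0.32 for Npr1, and E3-KO from -0.49 to 0.0089 for Ndrg1 and -0.26 to 0.01 for Calml4.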
